A study of Mus musculus with 6 samples.

Results

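Nanog, Klf5, Sall4, Esrrb, Tfcp2l1 and Zfp42 encode transcription factors of the network that keeps early mouse embryo cells and embryonic stem cells pluripotent. Their probes were taken as those whose platform annotation gives exactly 1 gene symbol, 1 of these 6. That gave 9 probes among the 6249 probes with 1 gene: 3 for Klf5, 2 for Nanog and 1 for each of the others. All 9 passed the filter, which left out only probes listed at exactly 0 on every array. Another 10 probes name a member together with other genes and were not used.

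The samples were parthenogenetic mouse embryos, which develop from an egg activated without sperm. Eggs at metaphase of meiosis II were activated with cycloheximide, which blocks protein synthesis and acts without a rise in calcium, or with strontium chloride, which makes the egg release calcium repeatedly. Both groups also received cytochalasin D, which prevents loss of the polar body. Embryos were cultured for 60 h in KSOM medium, and the mRNA of about 25 embryos per array went through 2 rounds of amplification before labelling with Cy3. Each group held 3 arrays. On every array Universal Mouse Reference RNA, a commercial pool of RNA from mouse cell lines, was labelled with Cy5 after 1 round. The labels give no strain, and nothing in them ties the 3 arrays of a group to separate cultures, so the p-values rest on a spread between samples that may be only technical. Whether the missing calcium signal alters later gene expression is the question set by the title.

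In the blastocyst the inner cell mass gives rise to the epiblast, which forms the fetus, while the outer trophectoderm forms the placenta. The stage that these embryos had reached after 60 h was not examined here. Nanog is a homeodomain protein of the epiblast. Esrrb, an orphan nuclear receptor, and Tfcp2l1, of the grainyhead family, sustain self-renewal of naive stem cells, and Klf5 acts in both the inner cell mass and the trophectoderm. Sall4 is a zinc finger partner of Pou5f1 (Oct4) and Nanog, and Zfp42 (Rex1) is a zinc finger protein related to YY1, widely used as a marker of naive cells. The genes are tied into one circuit through binding at each other's regulatory sequences.

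RefSeq promoter windows (assembly GRCm38.p6) were matched by symbol for 4 of the 6 genes: Nanog, Esrrb, Tfcp2l1 and Zfp42. Nanog and Zfp42 are shown because their windows held matches to motifs of the circuit. The windows of Esrrb and Tfcp2l1 held no match to any motif searched. Both are written 5′ to 3′ on the strand of the gene. In Nanog (chr6:122707384-122707457, plus strand, from base -105 to base -32 before the start) the capitals mark the joined site for Pou5f1 and Sox2. In Zfp42 (chr8:43307062-43307210, minus strand, from base -201 to base -53) they mark the octamer bound by Pou5f1 and then a CACCC box of the Klf family.
Nanog: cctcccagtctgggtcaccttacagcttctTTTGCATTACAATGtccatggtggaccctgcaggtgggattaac
Zfp42: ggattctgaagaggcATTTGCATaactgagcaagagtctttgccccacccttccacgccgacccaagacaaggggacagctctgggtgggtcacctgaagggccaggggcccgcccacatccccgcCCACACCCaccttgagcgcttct

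The motifs were searched on both strands of windows of 300 bases each. The joined site was searched after the known Nanog element as TTTGCAT followed, 1 base on, by ACAATG, so its match in Nanog was set in advance. It was in 2 of 32851 windows, both of them Nanog windows around neighbouring starts, which overlap and hold the same site. The octamer, ATTTGCAT, was in 1.74% of windows and the CACCC box, GGGTGTGG on the other strand, in 3.56%. The Esrrb site, AAGGTCA, was in 4.72% of windows and the Tfcp2l1 motif, a CCAG, 6 bases and another CCAG, in 3.44%, with no match in the windows of the 4 genes. The arrays measured transcripts and not binding, so a match is a description of letters only.

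Values are log2 ratios of embryo over reference, so that 1 stands for a doubling, and the direction was taken as likely from the dyes. If it were the opposite, every sign would turn. A ratio tells how a transcript compares with the reference pool and not how abundant it is, and an effect of the dye or of the amplification rounds cannot be told apart from a true change. The median over all probes lay between 0.12 and 0.21 on the 6 arrays, so a ratio near these values is that of a typical probe. In pooled embryos, fewer cells of a type and less RNA per cell cannot be told apart.

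The probes that passed the test against the reference under each scaling and stood highest were those of Esrrb, 1 of the 2 of Nanog and 1 of the 3 of Klf5. They were at 1.16 (SE 0.21), 1.03 (SE 0.10) and 0.95 (SE 0.14) on average over 6 arrays, or 2.24-fold, 2.04-fold and 1.93-fold. The Nanog value was 0.47 with the running median of neighbouring probes subtracted. The other Klf5 probes were at 0.31 (SE 0.09), a call that centring ended, and at 0.19 (SE 0.17), which did not pass. Sall4 and Tfcp2l1 were called above the reference at 0.42 (SE 0.10) and 0.37 (SE 0.08), and these calls were lost once each array was centred on its median. Zfp42 lay at 0.18 (SE 0.09), the ratio of a typical probe. Between the activation groups no probe of a member passed the test.

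Of the 9 probes, 6 passed limma's test against the reference at an adjusted p of 0.05, all on the embryo side, where 40.3% of all probes were called higher and 26.8% lower. With arrays centred on their medians, 3 of the 9 were called higher, against 30.8% of all probes: Nanog probe 5210, Klf5 probe 8579 and the Esrrb probe. On all 6 arrays 7 of the 9 were above 0, as were 36.1% of all probes.

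**Figure D1:**
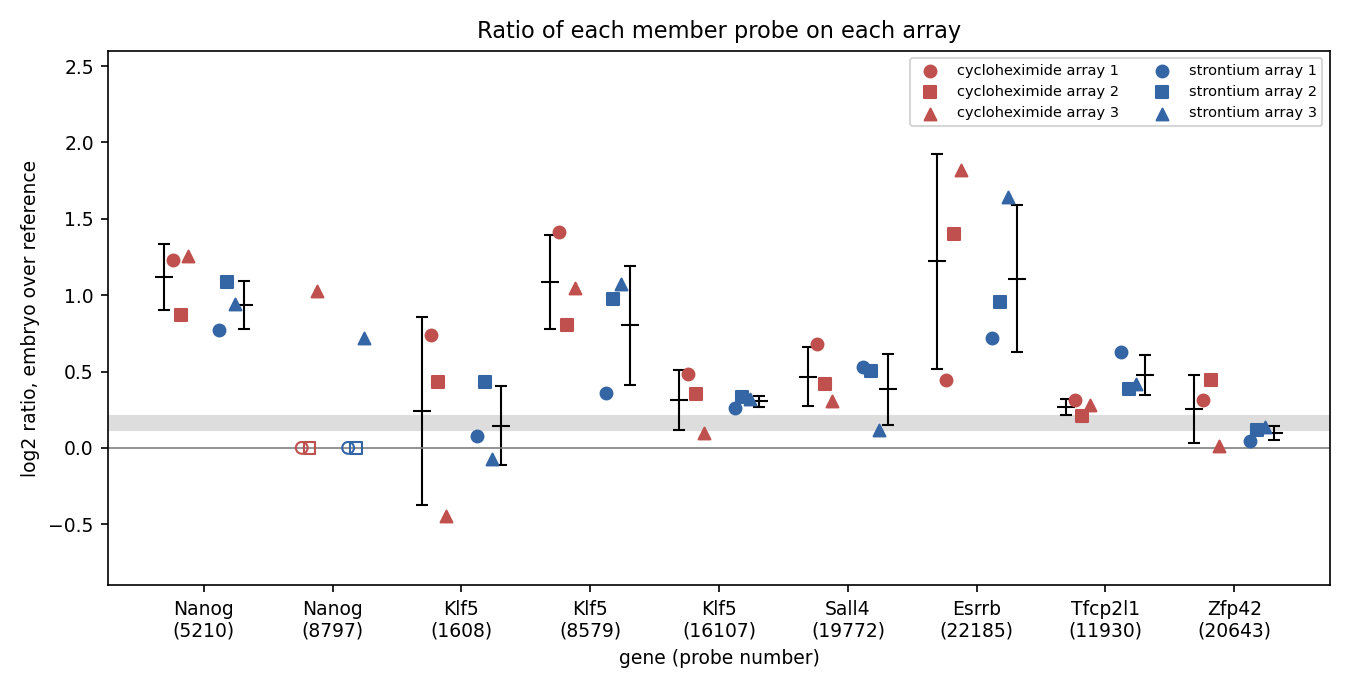
Each point is the log2 ratio of embryo over reference of 1 probe on 1 array, red for cycloheximide and blue for strontium, and black bars give the mean ± SD of 3 arrays. Open symbols are values listed at exactly 0, and the grey band is the range of the array medians, 0.12 to 0.21. Nanog probe 5210 lies above 0.77 on every array, while Zfp42 lies between 0.01 and 0.44.

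Nanog was read by 2 probes. Probe 5210 was at 1.23, 0.87 and 1.25 on cycloheximide arrays 1 to 3 and at 0.77, 1.09 and 0.94 on strontium arrays 1 to 3. The groups overlapped, and all 6 values were above the array medians. The mean was 1.12 ± 0.22 after cycloheximide and 0.93 ± 0.16 after strontium (SD, n = 3), a difference of 0.19 (SE 0.19, limma adjusted p = 0.871). The 95% interval of that difference, from -0.29 to 0.66, reaches from 1.22-fold lower to 1.58-fold higher after cycloheximide.

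Against the reference the limma adjusted p of Nanog probe 5210 was 2.58e-04. This probe lies in a stretch of probe numbers with high ratios in general: the running median over a probe and the 100 on either side was between 0.35 and 0.87 on the 6 arrays. With that median subtracted the mean was 0.47 (SE 0.11, limma adjusted p = 0.00941). The Nanog ratio moved further under this scaling than that of any other called member, and it stayed past the threshold.

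Nanog probe 8797 was listed at exactly 0 on arrays 1 and 2 of both groups, which is taken as a ratio that was not set. Its only values were 1.03 on cycloheximide array 3 and 0.72 on strontium array 3. Both lay near those of the other Nanog probe on the same arrays, 1.25 and 0.94. Of 112 probes at 0 on exactly 4 arrays, 22 had this pattern. With 1 value in each group no difference between groups was tested on values alone.

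Klf5 was read by 3 probes that share a sequence record in the annotation, and they disagreed in size. Probe 8579 was at 1.42, 0.80 and 1.05 after cycloheximide and at 0.36, 0.98 and 1.07 after strontium. Strontium array 1 was the lowest, and the groups overlapped. Its mean over 6 arrays had a limma adjusted p of 0.00144 against the reference and stayed past the threshold under all 16 alternatives, between 0.70 and 1.06.

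Klf5 probe 16107 was at 0.48, 0.36 and 0.10 after cycloheximide and at 0.26, 0.33 and 0.32 after strontium. The mean was 0.31 (SE 0.09, limma adjusted p = 0.0210 against the reference). That call was lost without cycloheximide array 1 (limma adjusted p = 0.0713), without cycloheximide array 2 (0.0745), without strontium array 2 (0.0650), with centred arrays (0.210) and with the running median subtracted (0.0679).

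Klf5 probe 1608 was at 0.74, 0.43 and -0.45 after cycloheximide and at 0.08, 0.43 and -0.07 after strontium. Array 3 was the lowest in both groups and was the only one below 0. The mean of 0.19 did not pass the test against the reference (limma adjusted p = 0.354), but 0.37 did without cycloheximide array 3 (limma adjusted p = 0.0342). Between the groups the 3 Klf5 probes differed by 0.29 (SE 0.28), 0.01 (SE 0.18) and 0.10 (SE 0.35), in the order described, with limma adjusted p of 0.866, 0.996 and 0.960. The intervals of these differences were -0.38 to 0.96, -0.42 to 0.44 and -0.75 to 0.94.

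Esrrb had the mean ratio farthest from 0 among the member probes and the widest spread. It was at 0.44, 1.40 and 1.82 on cycloheximide arrays 1 to 3 and at 0.72, 0.96 and 1.65 on strontium arrays 1 to 3. In both groups array 1 was the lowest and array 3 the highest, and the ranges of the groups overlapped almost wholly. The mean was 1.22 ± 0.70 after cycloheximide and 1.11 ± 0.48 after strontium (SD, n = 3), a difference of 0.11 (SE 0.43, limma adjusted p = 0.962).

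The interval of the Esrrb difference, -0.93 to 1.15, runs from 1.90-fold lower to 2.22-fold higher, so these arrays bound its difference more loosely than that of any other member measured on all arrays. Its spread within groups was larger than that of 76.9% of probes with 1 gene. Against the reference its limma adjusted p was 0.00364, and it stayed past the threshold under all 16 alternatives, with means between 0.98 and 1.36.

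Sall4 was at 0.68, 0.42 and 0.30 after cycloheximide and at 0.53, 0.50 and 0.12 after strontium. Array 3 was the lowest in both groups, opposite to Esrrb. The groups overlapped, with a difference of 0.08 (SE 0.20, limma adjusted p = 0.944) and an interval from -0.42 to 0.58. Against the reference the limma adjusted p was 0.0109, and it was 0.0608 for a mean of 0.25 with centred arrays.

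The Tfcp2l1 probe was the only one of the 9 whose groups did not overlap. It was at 0.31, 0.21 and 0.28 after cycloheximide and at 0.63, 0.39 and 0.42 after strontium, so every strontium array was above every cycloheximide array. The mean was 0.27 ± 0.05 and 0.48 ± 0.13 (SD, n = 3), a difference of -0.21 (SE 0.16) with a limma p of 0.240 and an adjusted p of 0.866. Non-overlapping groups were found for 11.8% of all probes, 5.72% with cycloheximide higher and 6.04% with it lower, so 1 of 9 is near the background.

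The interval of the Tfcp2l1 difference, -0.61 to 0.18, runs from 1.52-fold lower to 1.14-fold higher after cycloheximide. The difference kept its sign under all 16 alternatives, from -0.28 to -0.14. Against the reference the limma adjusted p was 0.00738, and it was 0.0771 with centred arrays and 0.137 with the running median subtracted. The Tfcp2l1 values varied little: their spread within groups was larger than that of only 5.43% of probes with 1 gene.

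Zfp42 was at 0.32, 0.44 and 0.01 after cycloheximide and at 0.05, 0.12 and 0.13 after strontium. Cycloheximide arrays 1 and 2 were higher than every strontium array and cycloheximide array 3 was lower than all of them. The mean was 0.26 ± 0.22 and 0.10 ± 0.05 (SD, n = 3), a difference of 0.16 (SE 0.18, limma adjusted p = 0.884) with an interval from -0.29 to 0.60. Although each value was above 0, the mean of 0.18 did not pass the test against the reference (limma adjusted p = 0.131). It was 0.00 with centred arrays, -0.086 with the running median subtracted, and 0.24 without cycloheximide array 3, where it passed (limma adjusted p = 0.0356).

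**Figure D2:**
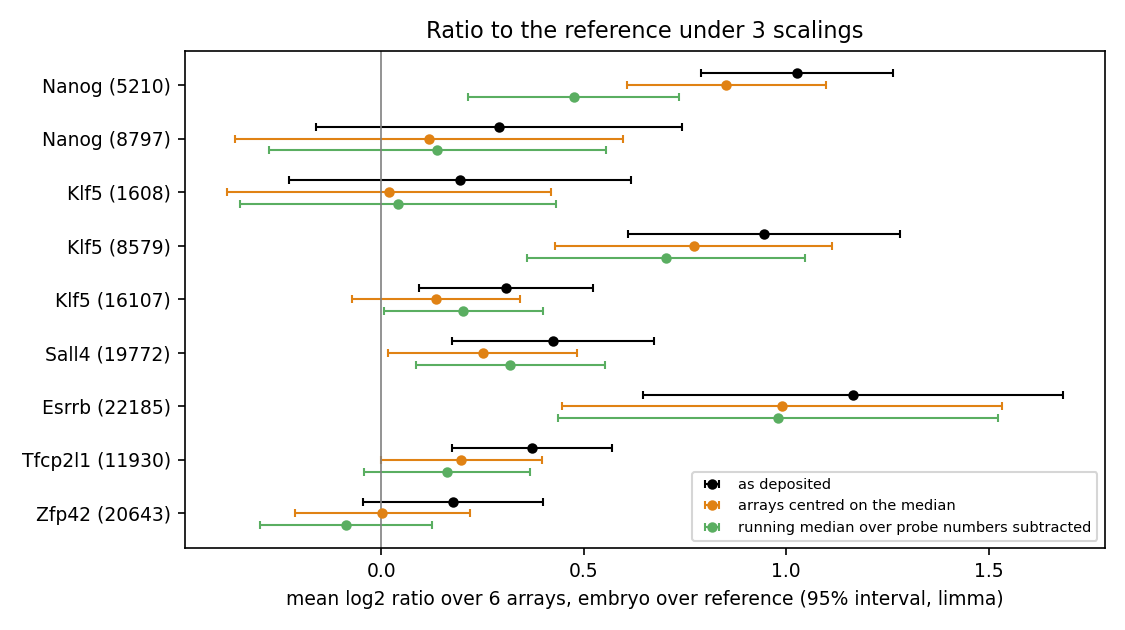
The x axis is the mean log2 ratio of embryo over reference over 6 arrays with its 95% interval from limma, and each row is 1 probe under 3 scalings. Nanog probe 5210, Klf5 probe 8579 and Esrrb stay above 0 under each, with Nanog moving from 1.03 to 0.47, while Zfp42 moves around 0.

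Ranks within an array do not depend on how the array is centred. They were taken without the running median subtracted, which was between 0.35 and 0.87 around Nanog probe 5210. Among probes with 1 gene, the mean ratio of Esrrb was at percentile 90.4, that of Nanog probe 5210 at 88.0 and that of Klf5 probe 8579 at 86.3. Sall4 followed at percentile 63.5, Tfcp2l1 at 60.4, Klf5 probe 16107 at 57.1, Klf5 probe 1608 at 49.9 and Zfp42 at 49.0. With the ratio turned, Esrrb would be at percentile 9.56, Nanog probe 5210 at 11.9, Klf5 probe 8579 at 13.6 and Zfp42 at 51.0. These are ranks of ratios to the reference and not of abundance.

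Nanog probe 5210 was between percentiles 77.2 and 91.5 on every array. Esrrb was between 66.1 and 93.5 and Klf5 probe 8579 between 57.9 and 93.1, each above the middle of every array. Zfp42 was between 42.8 and 67.4, and Klf5 probe 1608 had the widest range of the probes measured on every array, from 29.7 to 82.8.

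**Figure D3:**
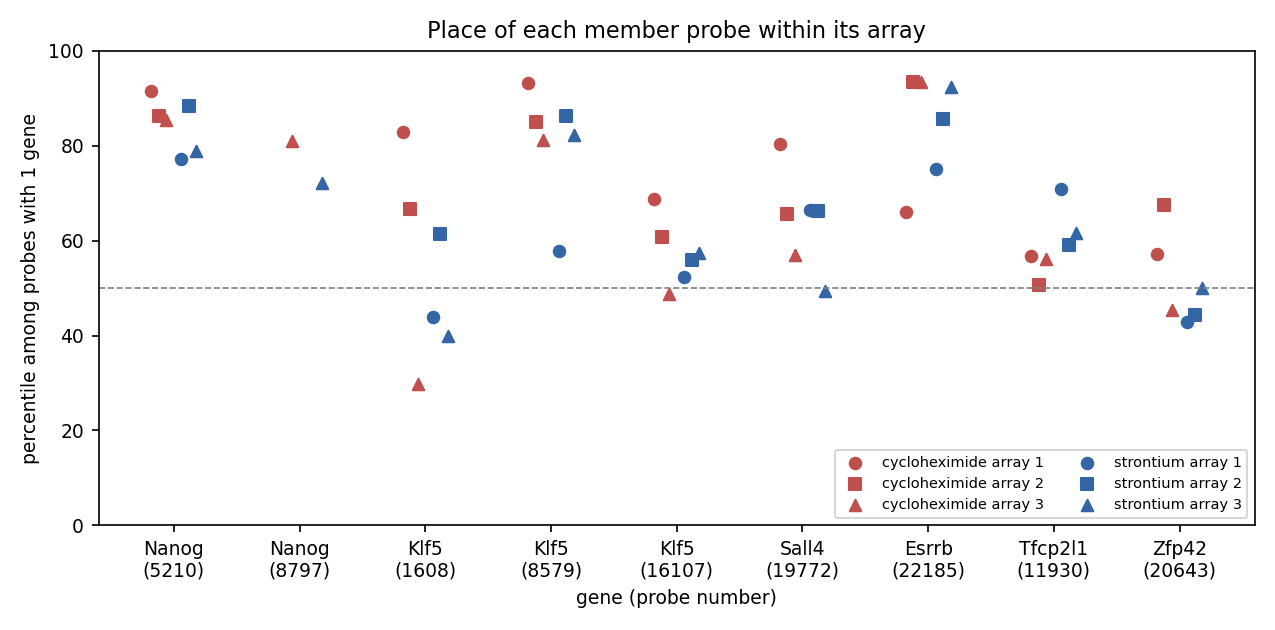
The y axis is the percentile of a probe's ratio among the probes with 1 gene on the same array, and the dashed line is percentile 50. Values listed at exactly 0 are left out. Nanog probe 5210, Klf5 probe 8579 and Esrrb lie above the line on all 6 arrays, and Zfp42 lies on both sides of it.

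In the test between the groups, 0 of the 9 probes passed limma's adjusted threshold, as did 0.0% of all 21921 probes. At an unadjusted p under 0.05 there were 0 of 9 against 6.02% of all probes, and the lowest unadjusted p was the 0.240 of Tfcp2l1. The differences were above 0 for 8 of the 9 probes, with a median of 0.10, and above 0 for 9481 of all 21921 probes, with a median of -0.05. That of Nanog probe 8797 rests on unset values. Of these differences those of Nanog (both probes), Klf5 (probes 1608 and 16107), Sall4 and Esrrb changed sign under at least 1 alternative.

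The other genes of the pluripotency network came from a list of 47, of which 15 were measured by 25 probes with 1 gene. Pou5f1, Sox2, Klf2, Klf4 and Tbx3 were not among them and are not analysed here. Of the 25 probes, 0 passed limma's adjusted threshold between the groups, and the median difference was -0.05. At an unadjusted limma p under 0.05, 1 was higher and 0 were lower, where 6.02% of all probes were in either direction. Against the reference 15 were called higher and 4 lower, where 40.3% of all probes were called higher and 26.8% lower. The median ratio was 0.56 where the 9 member probes had 0.37.

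The 4 network genes with the smallest p between groups were Smad1, Ncoa3, Rif1 and Dppa2. Smad1, a mediator of BMP signalling, was at -1.14, -1.06 and -1.70 after cycloheximide and between -3.29 and -2.50 after strontium, a difference of 1.63 (SE 0.29) with a limma adjusted p of 0.650. Its groups did not overlap, and it was far below the reference in both. Ncoa3, a coactivator that works with Esrrb, had a ratio of 3.04 and differed by 0.65 (SE 0.28, limma adjusted p = 0.828).

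Rif1, a factor of telomeres and replication timing, differed by 1.18 (SE 0.53) for one probe and by -0.47 (SE 0.58) for the other. Dppa2, a chromatin-binding gene of early embryos, differed by 0.52 (SE 0.28) for one probe and by -0.26 (SE 0.28) for the other, whose ratio reached its upper limit on 2 arrays. None of these differences passed the test, and a ratio at its limit leaves that of the second Dppa2 probe without a usable direction.

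**Figure D4:**
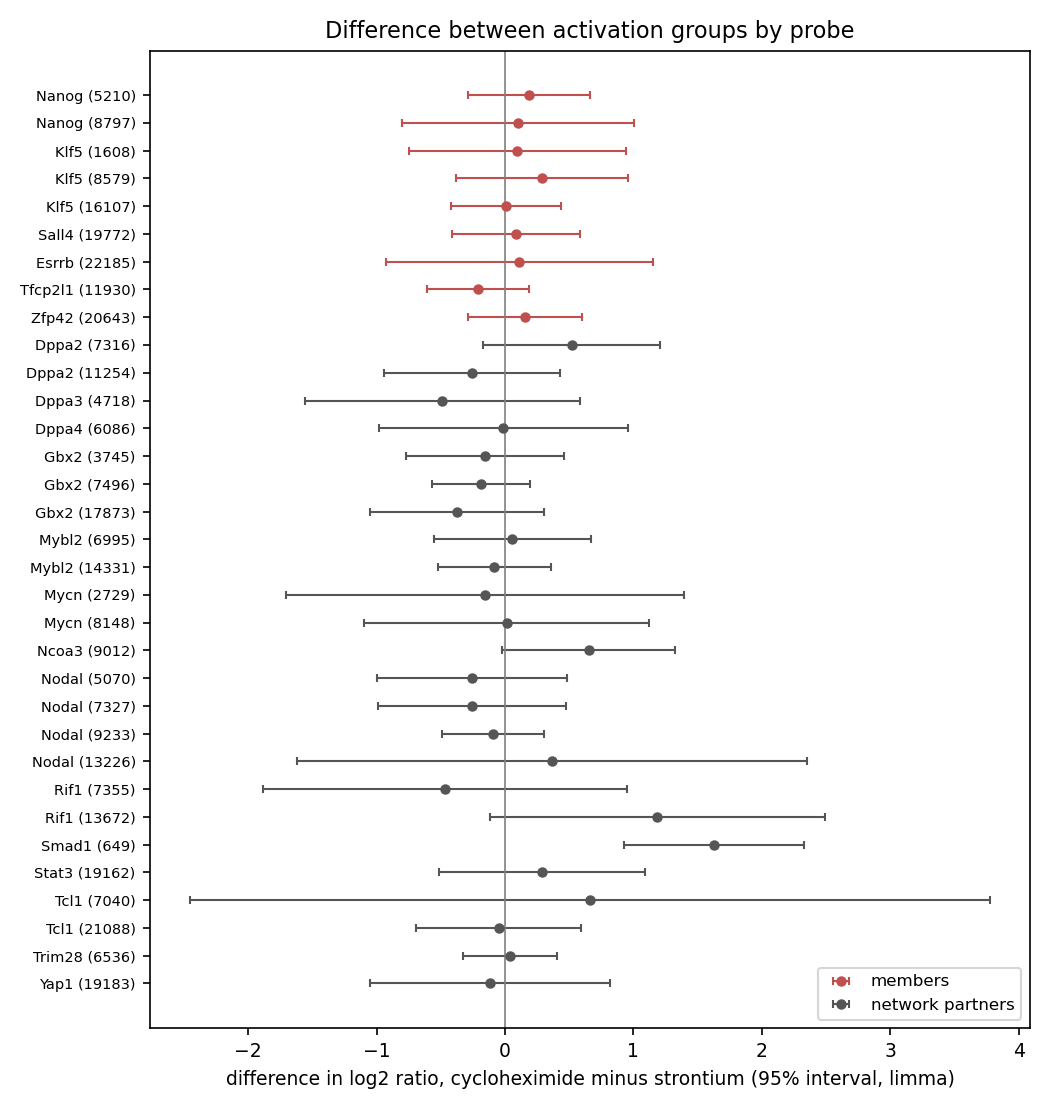
The x axis is the difference in log2 ratio, cycloheximide minus strontium, with its 95% interval from limma, for the 9 member probes (red) and 24 probes of network partners (grey). Tdgf1, at the limit of the ratio on all 6 arrays, is left out. The intervals of all 9 member probes include 0, and among the partners Smad1 at 1.63 is the one whose interval does not.

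Of 28 listed relatives of the members, 9 genes were measured, by 10 probes: 6 of the Klf family, and Sall3, Ubp1 and Grhl2. Of these, 4 probes were called higher and 3 lower than the reference by limma, near the 40.3% and 26.8% of all probes. Between the groups 0 differed (0 at an unadjusted p under 0.05, against 6.02% of all probes). Klf16 was at 1.99 and Klf12, a repressor, at 1.74 on average, while Klf3, also a repressor, was at -1.96 and Ubp1, a relative of Tfcp2l1, at -1.28. Klf11 was at 0.47. Klf7 gave -3.23 with one probe and 0.71 with the other. Between the groups Klf12 differed by -0.71 (SE 0.46), Ubp1 by 0.47 (SE 0.36), Klf8 by 0.51 (SE 0.40) and Klf7 by 1.05 (SE 0.83) and -0.21 (SE 0.21), with a limma adjusted p of 0.866 for each.

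The probes most like each member over the 6 arrays were sought among 5882 probes with 1 gene, no value at 0 and none at a limit, by Pearson's r. With so many probes and 6 arrays a high r is found for any probe, so these names are a description only. For Nanog probe 5210 they were Zbtb43 (r = 0.989), Kcnc2 (0.963) and Senp6 (0.953). For Esrrb they were Eif4e3 (0.995), Nfkbib (0.990) and 1700047G03Rik (0.970), and for Klf5 probe 1608 C330050A14Rik (0.996), Mapk1ip1l (0.994) and Ythdf3 (0.993). For Sall4 they were Morf4l1 (0.997), Lama5 (0.992) and Car13 (0.977), and for Tfcp2l1 Mta3 (0.995), Calb1 (0.988) and Usp25 (0.982). For Zfp42 they were Ror1 (0.992), B230219D22Rik (0.986) and Ubp1 (0.981). No other member was among the 3 most like any of them.

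Markers of the embryo and of other cells were read beside the members. As ratios to a pool of cell lines, they cannot show whether such cells were in the samples. Measured were 2 of 14 listed oocyte genes, 3 of 13 of cumulus and granulosa, 3 of 9 of blood and 5 of 12 of fibroblasts. For trophectoderm 6 of 15 were measured and for primitive endoderm 9 of 14. Dppa3, a gene of the egg and early embryo, was at 5.10 or more on every array and reached the upper limit on 1. Of the 3 probes of oocyte genes, that of Zp2, of the egg coat, had a mean ratio of 1.73. Those of Bmp15, a growth factor of the egg, had 0.27 and 0.37. The 6 probes of fibroblast genes had array medians between -4.48 and -3.29, with S100a6 at the lower limit on all 6 arrays. Fn1, of the fibroblast list, had a mean ratio of -5.25 with one probe and 0.31 with the other, which was called above the reference. Array medians were between -0.47 and 0.30 for 4 cumulus and granulosa probes, 1 of them (Cyp11a1) listed at 0 on 4 arrays. They were between -0.35 and 0.08 for 4 blood probes. Within each of these lists the probes lay on both sides of 0. Mean ratios were -1.20 for Gja1, 0.05 for Ptgs2 and -0.88 and 0.62 for Cyp11a1. In the blood list they were -2.64 for Ptprc, 0.57 for S100a8 and -0.72 and 1.11 for S100a9. Trophectoderm genes, which Klf5 accompanies, were measured by 6 probes, of which 0 passed limma's adjusted threshold, 2 were lower at an unadjusted p under 0.05 (Tfap2a by -1.02, Gata3 by -0.49) and 4 were lower without overlap. Over all probes 6.02% were at an unadjusted p under 0.05 in either direction. Without overlap 5.72% of all probes were higher and 6.04% were lower. The median difference of the trophectoderm probes was -0.26, where that of all probes was -0.05. Of 10 probes of primitive endoderm genes 0 passed, with 0 at an unadjusted p under 0.05, 1 higher and 2 lower without overlap, and a median difference of -0.34. The part of other cells in the members' values was not tested.

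Arrays did not always resemble their own group most. Cycloheximide array 3 correlated across probes at 0.909 with strontium array 3 and at 0.762 and 0.810 with the other arrays of its own group, and the interquartile range of ratios was 1.60 and 1.59 on both arrays numbered 3 against 1.11 to 1.41 on the others. The arrays numbered 3 were those on which Esrrb was highest and Sall4 and Klf5 probe 1608 were lowest in both groups. The part of this spread in the members' values was not tested.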

How the data were processed

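For 22132 probes of 2-colour Agilent arrays the deposited values are log10 ratios between channels, made with Agilent Feature Extraction per the submitters' processing notes. Not given in the sources used here were its version and how background and dyes were treated. The deposited log10 values run from -2 to 2, which are limits, and are not centred: the array medians are those of the report. The stated dyes and the red over green convention make reference over embryo likely, so signs were turned and values multiplied by 3.32 to give log2. Without spot intensities signal over background is unknown, and precision is limited by there being 3 arrays a group.

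Probes were named from the platform annotation (6249 with 1 gene, 9389 with several, 6494 unlisted), and 6179 matched the mouse gene table by gene ID. The 211 probes at exactly 0 on every array were left out, and single values of 0 stayed as 0. The remaining 21921 probes were fitted with limma 3.58.1 (lmFit, eBayes) in R 4.3.3, with group means as coefficients. The contrasts were cycloheximide minus strontium and the mean of both groups against 0, with Benjamini-Hochberg adjustment over all probes. Error terms after ± are SD over 3 arrays, and SE and intervals are limma's. Python 3.11.15, pandas 2.3.3, NumPy 2.4.6 and matplotlib 3.10.9 were used for tables and plots. The fit was also run on simulated data with independent noise on each array. Those data lacked the likeness between the arrays numbered 3, so the p-values were not tested under it.

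Members and lists were chosen with earlier results of these data known. All member probes are named. Of each other list up to 4 genes with the smallest p between groups could be named, and family members past the threshold against the reference. Dppa3, Tdgf1 and S100a6 were also named, outside this rule. Likeness used the member's probe with the fewest values at 0 or a limit, and then the lowest probe number. Alternatives covered filters, scaling, position, array weights, the replicate block and leaving out each array.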

Additional observations from a re-analysis of the deposited data

How the results depend on the processing

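The count of 0 member probes different between the groups held under every alternative run, and 0 member probes were below the reference under each. The count above the reference was 6 (40.3% of all probes), with 3 after centring each array on its median (30.8%), 4 with the running median subtracted (30.8%), 8 with array weights (49.0%) and 5 to 8 without 1 array (34.9% to 41.6%). The replicate block gave 0 calls between the groups and 7 above the reference (42.4%). It added Nanog probe 8797, at 0.29 with values of 0 kept. The labels do not say that the numbers pair the arrays. Between arrays sharing a number, deviations from the group means correlated at 0.056, 0.379 and 0.501. Between arrays of the 2 groups with different numbers they correlated at -0.501 to 0.457, and pairing was not tested. With array weights, whose estimate stopped before it converged, 359 of all 21921 probes were called between the groups (1.64%), against 0 under every other alternative. Of these 0 were member probes and 1 was a network probe (Smad1, 1.96). At an unadjusted limma p under 0.05 were 2 of the 9 member probes (Tfcp2l1 and Zfp42), against 7232 of all 21921 probes. The weights ran from 0.156 for cycloheximide array 3 to 22.598 for cycloheximide array 2. Under these weights the differences of Nanog changed sign to -0.041 (probe 5210) and -0.11 (probe 8797) and that of Sall4 to -0.027. Subtracting the running median turned Zfp42 to -0.086 against the reference. Without 1 array, differences ran from -0.24 to 0.34 for Nanog probe 8797, from -0.15 to 0.44 for Klf5 probe 1608, from -0.080 to 0.11 for Klf5 probe 16107, from -0.049 to 0.17 for Sall4 and from -0.19 to 0.50 for Esrrb, all with adjusted p above the threshold, and the cause was not tested. The other 129 of 144 alternative differences kept their sign. Signal over background was not analysed here.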
